A study of Mus musculus with 11 samples.

Results

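Immediate early genes and stress-inducible heat shock genes were examined in dendritic cells sorted from mouse spleen. The set was given as a list of 33 genes, 27 immediate early genes and 6 heat shock genes. On the array, 32 of the 33 had a probeset that names no other gene, out of 22180 genes tested. Fosl1 had only a probeset shared with the neighbouring symbol Ccdc85b, so it was not measured alone and has no value here. Where a gene had several probesets, the brightest over all arrays was used.

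Exposed cells were compared with naive cells, both of the C57BL/6 strain. Exposed cells (5 arrays) came from mice that had received a transfer of Eµ-Myc cells, a B cell lymphoma driven by a Myc transgene under the immunoglobulin heavy chain enhancer. Their spleens carried, per the labels, a mean tumour load of 10 to 36% of the lymphocytes. Naive cells (6 arrays) came from mice without lymphoma. In both groups, CD11c- and MHC class II-positive cells were taken by sorting, over 95% pure, total RNA was amplified and labelled with biotin, and 1 sample was hybridised to each 1-colour array. The comparison addresses how the transcriptome of dendritic cells differs after contact with lymphoma. The shared protocol text also names Cre lines, whose arrays are not analysed here. The labels give no age or sex, and leave unsaid whether every array is a separate mouse, so p-values measure only the spread between these samples. Arrays are called by the number in their title; the last exposed array has title number 6 but replicate number 5.

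Immediate early genes are switched on within minutes of a signal, without new protein synthesis, through factors already in the cell such as SRF with its TCF partners, CREB and NF-kB, downstream of MAP kinases. Many encode short-lived transcription factors of the AP-1, EGR, NR4A and KLF families, and others encode phosphatases or RNA-binding proteins that switch the same signal off again. Heat shock genes are driven by HSF1, which binds heat shock elements when proteins unfold, and encode chaperones. In dendritic cells immediate early genes respond to microbial and cytokine signals, and both kinds of gene are also known to be induced when a tissue is dissociated into single cells.

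The promoters of the inducible chaperone genes are shown because HSF1 binds an element whose core can be looked for in the sequence. That of Klf2 is shown because Klf2 had the smallest p-value of the set in the test below. The sequences are the 250 bases before the annotated start, from RefSeq on GRCm38.p6, in the direction of transcription. Capitals mark the heat shock element core (TTCNNGAA or GAANNTTC) and the CCAAT box (CCAAT, or ATTGG on the other strand).
Hspa1a: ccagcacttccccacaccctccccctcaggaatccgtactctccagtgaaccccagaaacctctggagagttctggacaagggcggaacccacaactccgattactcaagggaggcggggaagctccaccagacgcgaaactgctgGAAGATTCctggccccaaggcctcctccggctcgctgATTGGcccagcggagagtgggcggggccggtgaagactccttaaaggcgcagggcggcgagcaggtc
Hspa1b: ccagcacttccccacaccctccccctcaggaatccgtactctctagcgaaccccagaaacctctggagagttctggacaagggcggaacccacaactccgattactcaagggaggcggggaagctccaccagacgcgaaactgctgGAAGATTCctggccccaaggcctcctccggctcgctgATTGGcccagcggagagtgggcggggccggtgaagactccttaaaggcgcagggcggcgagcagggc
Hsph1: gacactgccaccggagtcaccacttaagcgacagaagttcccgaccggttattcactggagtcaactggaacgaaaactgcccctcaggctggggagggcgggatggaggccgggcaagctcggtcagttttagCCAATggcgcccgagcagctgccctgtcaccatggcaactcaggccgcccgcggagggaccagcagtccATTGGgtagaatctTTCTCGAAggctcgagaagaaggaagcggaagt
Dnajb1: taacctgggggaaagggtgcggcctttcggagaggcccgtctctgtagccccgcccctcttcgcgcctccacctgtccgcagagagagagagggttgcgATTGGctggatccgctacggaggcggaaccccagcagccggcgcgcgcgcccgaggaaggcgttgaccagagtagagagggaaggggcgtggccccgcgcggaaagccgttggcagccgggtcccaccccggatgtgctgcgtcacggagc
Klf2: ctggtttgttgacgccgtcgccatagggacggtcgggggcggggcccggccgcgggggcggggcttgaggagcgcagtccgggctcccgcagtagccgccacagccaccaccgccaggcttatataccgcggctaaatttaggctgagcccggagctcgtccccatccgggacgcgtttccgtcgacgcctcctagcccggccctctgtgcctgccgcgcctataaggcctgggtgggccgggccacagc
They lie at chr17:34972157-34972406 (minus strand) for Hspa1a, chr17:34959239-34959488 (minus strand) for Hspa1b, chr5:149636337-149636586 (minus strand) for Hsph1, chr8:83607925-83608174 (plus strand) for Dnajb1 and chr8:72318812-72319061 (plus strand) for Klf2. For Hsph1 and Dnajb1 the first of 2 listed starts is shown.

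Hspa1a and Hspa1b, neighbouring copies of the inducible Hsp70 gene, have the core at -104 to -97 and a CCAAT box at -67 to -63, counted from the start. Their windows, 300 bases long with the 50 bases from the start on, are the same at 296 positions (98.7%). The Hsph1 window has the core at -33 to -26, and 2 more matches that overlap each other, at 37 to 44 and 42 to 49 after the start. The first Dnajb1 window holds CCAAT boxes at -151 to -147 and, after the start, at 12 to 16, and no match to the core. The Klf2 window holds none of the motifs searched.

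Promoter windows were listed for 26 of the 33 genes and not for Dusp4, Egr1, Egr3, Fosl1, Hsp90aa1, Hspa8 and Ier2. On both strands, the heat shock element core was found in 6 of the 26 (Egr2, Fosl2, Hspa1a, Hspa1b, Hsph1 and Jun), and 15.1% of all 32851 windows hold it. The CRE (TGACGTCA), bound by CREB and ATF factors, was found in Btg2, Dusp1 and Maff, and in 1.79% of all windows. The CArG box, the site of SRF, was found in Dusp5, Egr2 and Zfp36, and in 1.63% of all windows. Dusp5 holds 2 of them, ccatatttgg at -82 to -73 and ccttatatgg at -72 to -63, and Zfp36 holds ccataaaagg at -58 to -49. The AP-1 site (TGANTCA) was found in 0 of the 26 and in 7.81% of all windows, and the CCAAT box in 12 of the 26 and in 37.4% of all windows. Some genes have several windows, whereas the percentages are of single windows. Of the 34 windows of these 26 genes, 7 held the heat shock element core, 3 the CRE, 6 the CArG box, 0 the AP-1 site and 15 the CCAAT box. All of these are matches of letters and were not measured as bound sites.

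Values below are log2 expression, so a difference of 1 is a doubling, and every difference is exposed minus naive. The array medians lay between 5.53 and 5.61. All 32 measured genes were brighter than the 95th percentile of the olfactory receptor genes (5.597), the mark used for dim probesets, and the lowest mean was 6.18 for Dusp4. Conventional dendritic cell markers averaged 10.63 to 10.76 on exposed and 10.75 to 10.86 on naive arrays (16 of 18 measured, 1 lower, Clec10a dim). B cell markers (9 of 10 measured, Vpreb3 dim) averaged 6.70 to 7.02 and 6.76 to 6.997, and none passed the test. Of 8 measured T and NK cell markers 1 was higher, with Cd3d, Cd3e, Cd3g and Klrb1c dim, and 8 of 10 neutrophil markers were dim. Red pulp macrophage markers (10 of 10 measured, none dim) averaged 8.82 to 10.80 on exposed and 8.04 to 9.24 on naive arrays, with a median difference of 0.77, 9 of 10 positive and none past the test. At an unadjusted limma p under 0.05, 8 of these 10 were higher and 0 lower, against 12.2% of all genes in either direction. Other marker lists also exceeded that share. Of T and NK cell markers 5 were higher and 1 lower, and of B cell markers 2 were higher and 2 lower. Of conventional dendritic cell markers 2 were higher and 4 lower. With adjustment, 0.879% of all genes were higher and 0.546% lower. In sorted samples such as these, fewer cells of a type and less RNA per cell cannot be told apart.

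The differences of immediate early and heat shock genes ran in both directions around 0, from -0.50 for Nr4a3 to 0.66 for Klf2. With limma and Benjamini-Hochberg adjustment over all genes at 0.05, 1 of the 32 genes was higher in exposed cells, Klf2, and 0 were lower. Over all 22180 genes 0.879% were higher and 0.546% were lower. Differences were positive for 17 of 32 genes (53.1%), against 53.5% of all genes, and their median was 0.01, against 0.01 for all genes. At an unadjusted p under 0.05 there were 6 of 32 (18.8%), against 12.2% of all genes: Klf2, Klf6, Fos and Egr2 higher, Nr4a3 and Fosl2 lower. No gene of the set had all exposed arrays above or all below the naive arrays, which 2.29% of all genes did. The plot of differences shows the 95% limits of each gene.

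**Figure D1:**
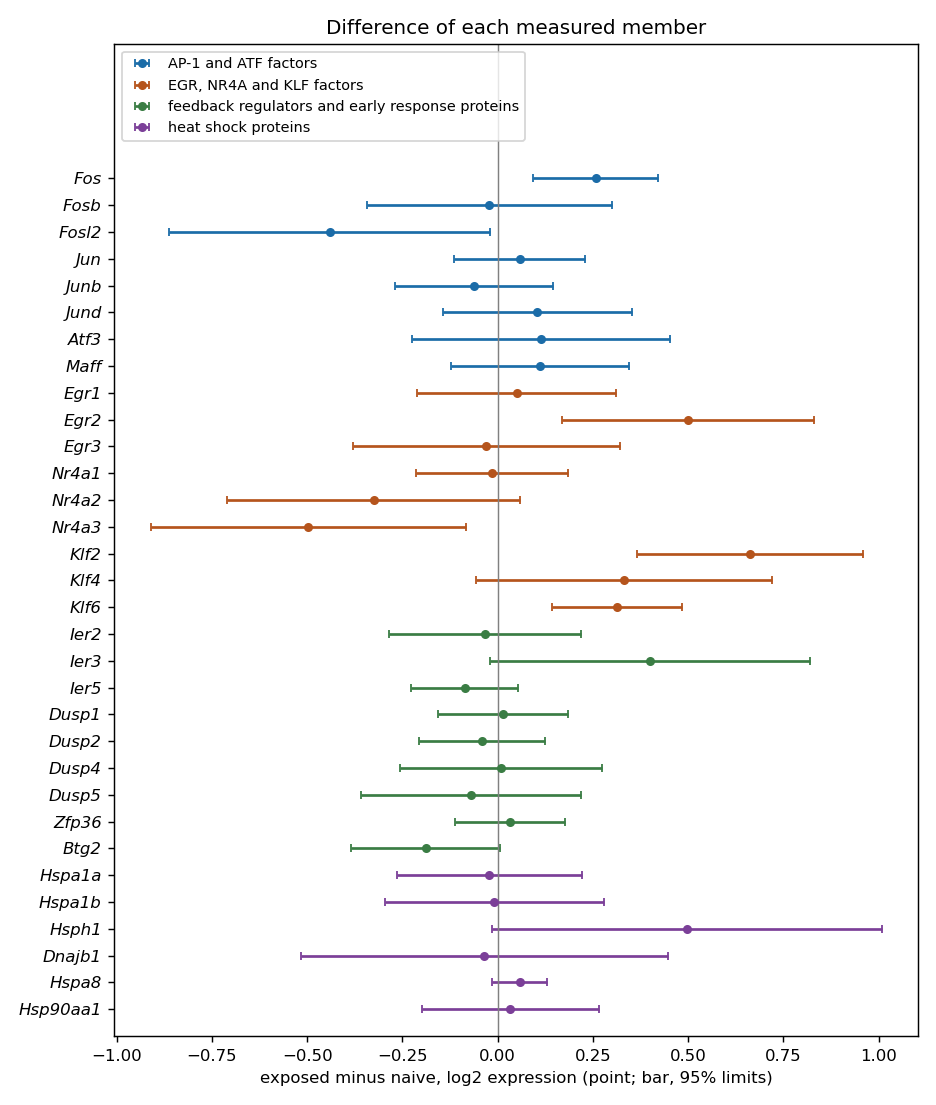
Difference in log2 expression (exposed minus naive) for the 32 measured genes, grouped by role; points are limma estimates from 5 exposed and 6 naive arrays and bars are their 95% confidence limits. Klf2 (0.66) lies farthest to the right and Nr4a3 (-0.50) farthest to the left, and most bars cross 0.

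Among the AP-1 factors, which bind DNA as pairs of Fos and Jun proteins, Fos had the smallest p. It stood at 12.04, 11.96, 11.79, 11.94 and 11.70 on exposed arrays 1, 2, 3, 4 and 6, against 11.36 at the lowest, 11.65 at the median and 11.77 at the highest of the naive arrays. Exposed arrays 1 to 4 lay above every naive array and exposed array 6 lay within the naive range. The limma difference was 0.26 (SE 0.08) and missed the threshold with an adjusted p of 0.137.

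Fosl2, encoding the Fos relative Fra-2, leaned the other way, with 10.16, 9.15, 10.06, 9.24 and 9.06 on exposed arrays 1, 2, 3, 4 and 6, against 9.79, 9.88 and 10.36 at the lowest, median and highest of the naive arrays. Exposed arrays 2, 4 and 6 lay below every naive array, and exposed arrays 1 and 3 lay inside the naive range. The exposed arrays were therefore more spread, with an SD of 0.53, against 0.21 for naive arrays, and the difference of -0.44 (SE 0.20) had an adjusted p of 0.378.

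The other members of this family differed by between -0.06 and 0.11, and none passed. Fosb averaged 11.63 ± 0.36 on exposed and 11.66 ± 0.23 on naive arrays (SD, n = 5 and n = 6, as in all means below). Jun, the main partner of Fos, averaged 12.04 ± 0.16 and 11.98 ± 0.15, and Junb, which can hold Jun back, averaged 10.91 ± 0.23 and 10.98 ± 0.14. Their adjusted p-values were 0.976, 0.848 and 0.872, in that order. Jund, a Jun relative present in resting cells, averaged 10.63 ± 0.27 on exposed and 10.52 ± 0.17 on naive arrays. Atf3, a stress-induced repressor of inflammatory genes, averaged 11.46 ± 0.39 on exposed and 11.35 ± 0.22 on naive arrays, and the small Maf factor Maff averaged 7.37 ± 0.23 and 7.26 ± 0.18. For these 3 genes the differences lay between 0.10 and 0.11. The interval for Jun ran from -0.11 to 0.23 and that for Atf3 from -0.23 to 0.45, so both signs lie within the limits.

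The KLF genes held the only member past the threshold. Klf2, a zinc finger factor known to hold leukocytes in a quiescent state and to be induced by laminar flow in endothelium, stood at 10.49, 10.41, 10.46, 9.91 and 9.77 on exposed arrays 1, 2, 3, 4 and 6. On naive arrays 1 to 6 it stood at 9.52, 9.89, 9.30, 9.51, 9.52 and 9.53. The first 3 exposed arrays were well above all naive arrays, exposed array 4 was barely above naive array 2, and exposed array 6 lay below naive array 2. Klf2 was 1.58-fold higher in exposed cells, by 0.66 on the log2 scale (SE 0.14, 95% interval 0.37 to 0.96, limma adjusted p = 0.0310), at 10.21 ± 0.34 on exposed and 9.55 ± 0.19 on naive arrays. The call was lost in 8 of the 11 fits that each left out 1 array, with a difference that stayed between 0.59 and 0.77. Without exposed array 1, 2 or 3 the adjusted p was 0.0611, 0.0977 and 0.0805. Without naive array 1, 3, 4, 5 or 6 it was 0.0698, 0.0760, 0.0628, 0.0753 and 0.0717, and without exposed array 6 it was 0.00879. Red pulp macrophage markers averaged 10.80, 9.85 and 8.96 on exposed arrays 1 to 3, and 8.92 and 8.82 on exposed arrays 4 and 6, and 8.80, 9.24, 8.04, 8.61, 8.75 and 8.47 on naive arrays 1 to 6. Plasmacytoid dendritic cell markers (9 of 10 measured, none dim) averaged 7.92, 7.999, 7.79, 7.62 and 7.67 on exposed arrays 1, 2, 3, 4 and 6, against 7.496 to 7.83 on naive arrays. Monocyte markers (9 of 9 measured, Chil3 and F13a1 dim) averaged 8.20, 8.15, 7.59, 7.504 and 7.39 on those exposed arrays, against 7.51 to 8.05 on naive arrays. Naive array 2 was the highest naive array for Klf2, for the macrophage and for the plasmacytoid markers, and naive array 3 the lowest for all of them. This order was not particular to them. T and NK cell markers were also highest on naive array 2 (6.36) and lowest on naive array 3 (6.22) among naive arrays. Naive array 2 was also the highest naive array for 20 of the 26 immediate early genes. The part of any of these cell types in the Klf2 difference was not tested.

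Klf6, a widely expressed early response factor of the same family, stood at 11.51, 11.30, 11.42, 11.32 and 11.05 on exposed arrays 1, 2, 3, 4 and 6, against 10.84, 11.02 and 11.15 at the lowest, median and highest of the naive arrays. As with Fos, exposed arrays 1 to 4 lay above every naive array and exposed array 6 did not. The difference was 0.31 (SE 0.08, adjusted p = 0.0755), and it passed with exposed array 6 left out (0.38, adjusted p = 0.0159). With any other single array left out it did not pass, at a limma adjusted p of 0.0813 to 0.165. Klf4, which takes part in monocyte and dendritic cell differentiation, averaged 9.68 ± 0.47 on exposed and 9.34 ± 0.22 on naive arrays. Its exposed arrays 1 and 3, at 10.17 and 10.18, lay above the naive range of 9.001 to 9.67 and the others lay inside it, and the difference of 0.33 had an adjusted p of 0.509.

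**Figure D2:**
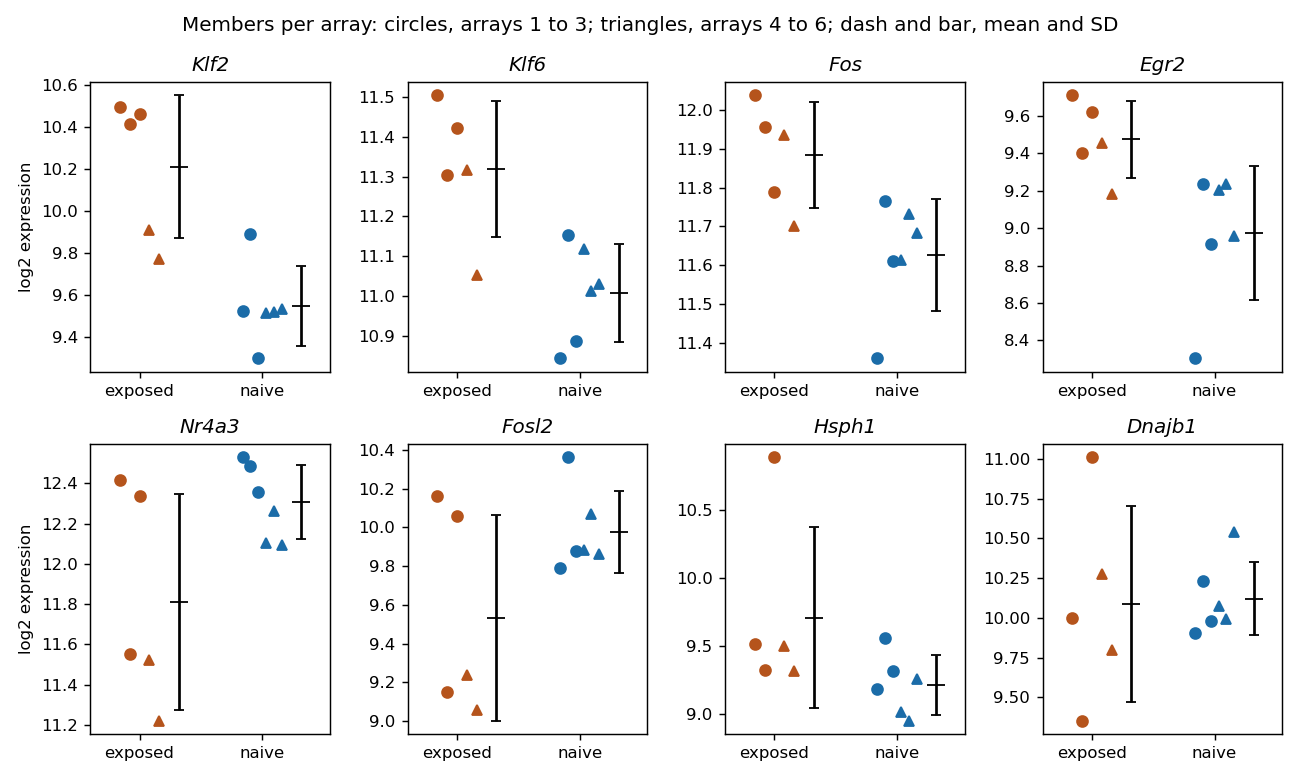
Log2 expression of 8 genes on every array, exposed left and naive right in each panel; circles are arrays numbered 1 to 3, triangles arrays numbered 4 to 6, and the dash and bar are the mean and SD (n = 5 exposed and n = 6 naive). In Klf2 the exposed circles (10.41 to 10.49) lie above the exposed triangles (9.91 and 9.77), and in Nr4a3 and Fosl2 the exposed arrays fall into a higher pair, arrays 1 and 3, and a lower group.

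The EGR factors are zinc finger proteins induced through SRF, and Egr2 and Egr3 also restrain lymphocyte activation. Egr2 stood at 9.71, 9.40, 9.62, 9.46 and 9.18 on exposed arrays 1, 2, 3, 4 and 6, against 8.30, 9.08 and 9.24 at the lowest, median and highest of the naive arrays. Again only exposed array 6 reached down into the naive range, and naive array 1 lay far below the other naive arrays. The difference was 0.50 (SE 0.15, adjusted p = 0.156), and 0.37 without naive array 1 (adjusted p = 0.140). Egr1 averaged 10.41 ± 0.17 on exposed and 10.36 ± 0.28 on naive arrays, and Egr3 averaged 9.54 ± 0.30 and 9.57 ± 0.33. All exposed values of Egr1 fell inside its naive range, from 10.09 to 10.88.

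The NR4A genes encode orphan nuclear receptors whose activity is set mainly by how much of them is made. Nr4a3 stood at 12.42, 11.55, 12.34, 11.52 and 11.22 on exposed arrays 1, 2, 3, 4 and 6, against 12.10, 12.31 and 12.53 at the lowest, median and highest of the naive arrays. Exposed arrays 2, 4 and 6 lay below all naive arrays while exposed arrays 1 and 3 lay among them, the same split as for Fosl2. The difference was -0.50 (SE 0.19, adjusted p = 0.288), and -0.55 when the fit held the number set, described further on, as a block (adjusted p = 0.0640). Nr4a2 showed that split too, at 11.64, 10.71, 11.54, 10.99 and 10.56 on exposed arrays 1, 2, 3, 4 and 6, against a naive range of 11.19 to 11.71, with a difference of -0.33 (adjusted p = 0.514). Nr4a1, also called Nur77, averaged 12.77 ± 0.22 on exposed and 12.79 ± 0.13 on naive arrays.

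None of the 9 feedback regulators and early response proteins passed the test, and none had an unadjusted p under 0.05. Dusp1, Dusp2, Dusp4 and Dusp5 encode phosphatases that switch off MAP kinases, and their differences were 0.01, -0.04, 0.01 and -0.07. Dusp1 averaged 12.38 ± 0.18 on exposed and 12.37 ± 0.12 on naive arrays, Dusp2 10.00 ± 0.18 and 10.04 ± 0.10, Dusp4 6.18 ± 0.31 and 6.17 ± 0.13, and Dusp5 11.09 ± 0.32 and 11.16 ± 0.21. Zfp36 encodes tristetraprolin, which degrades the mRNAs of Tnf and other cytokines, and averaged 12.63 ± 0.14 and 12.60 ± 0.11, with 95% limits of -0.11 and 0.18 on the difference. Btg2, an antiproliferative gene that promotes mRNA deadenylation, averaged 11.62 ± 0.14 on exposed and 11.81 ± 0.20 on naive arrays, a difference of -0.19 (adjusted p = 0.431).

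The IER genes are early response genes of several kinds. Ier3, which modulates survival and ERK signalling, had 10.29, 10.49, 10.34, 10.01 and 9.46 on exposed arrays 1, 2, 3, 4 and 6, against 9.07, 9.78 and 10.21 at the lowest, median and highest of the naive arrays. Exposed arrays 1 to 3 lay above the naive range and exposed arrays 4 and 6 lay inside it, and the difference of 0.40 had an adjusted p of 0.444. Ier2 averaged 9.74 ± 0.10 on exposed and 9.77 ± 0.29 on naive arrays, and Ier5 averaged 10.33 ± 0.08 and 10.41 ± 0.13, with all exposed values of both genes inside the naive range.

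None of the 6 heat shock genes passed the test, and all 6 were highest of the 11 arrays on exposed array 3. Hspa1a and Hspa1b, encoding inducible Hsp70, are near-identical copies whose probes may read each other, so their values are uncertain as values of single genes. Hspa1a stood at 12.99, 12.71, 13.45, 13.29 and 13.13 on exposed arrays 1, 2, 3, 4 and 6, against 12.86, 13.17 and 13.27 at the lowest, median and highest of the naive arrays, a difference of -0.02 (adjusted p = 0.968). Exposed array 2 lay below and exposed arrays 3 and 4 above the naive range. Hspa1b averaged 12.64 ± 0.37 on exposed and 12.64 ± 0.14 on naive arrays.

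Hsph1, the Hsp110 nucleotide exchange factor that works with Hsp70, had 9.52, 9.33, 10.89, 9.51 and 9.32 on exposed arrays 1, 2, 3, 4 and 6, against 8.95, 9.22 and 9.56 at the lowest, median and highest of the naive arrays. Only exposed array 3 lay above the naive range, by more than 1 unit. The difference of 0.50 (SE 0.24, adjusted p = 0.428) was 0.20 without that array (adjusted p = 0.521). Dnajb1, the Hsp40 co-chaperone of Hsp70, had 10.00, 9.35, 11.01, 10.27 and 9.80 on exposed arrays 1, 2, 3, 4 and 6, against 9.91, 10.03 and 10.54 at the lowest, median and highest of the naive arrays. Exposed array 3 lay above and exposed arrays 2 and 6 below the naive range, and the means, 10.09 ± 0.62 on exposed and 10.12 ± 0.23 on naive arrays, were close. Hsp90aa1, the inducible Hsp90, averaged 10.78 ± 0.26 and 10.75 ± 0.15, with exposed array 3 at 11.17 and exposed array 2 at 10.48. Hspa8, the Hsc70 that cells make at all times, was steady by comparison, at 12.96 to 13.09 on exposed and 12.90 to 12.99 on naive arrays, a difference of 0.06 (SE 0.03, adjusted p = 0.548). Its 3 other probesets gave differences of 0.11 to 0.14, none past the test.

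These genes varied more between arrays of one group than most genes did. The median SD within groups was 0.23 for the 26 immediate early genes and 0.24 for the 6 heat shock genes, against 0.13 for all genes, and 13 of 26 and 3 of 6 lay above 0.23, the 90th percentile of all genes. The SD was larger among exposed than among naive arrays for 25 of 32 (78.1%), against 52.3% of all genes. Of all genes, 99.3% had a smaller SD than Hsph1 (0.47), 99.2% a smaller one than Dnajb1 (0.45) and 1.16% a smaller one than Hspa8 (0.04).

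Many genes shared the arrays on which they were high or low. Exposed array 1 was the highest exposed array for 15 of the 26 immediate early genes and exposed array 3 for 8, while exposed array 6 was the lowest exposed array for 20 and the lowest of all 11 arrays for 13. Among naive arrays, array 2 was the highest for 20 of the 26 and above the gene's mean over all arrays for 26 of 26, and array 1 was the lowest for 14. For the heat shock genes, exposed array 3 was the highest of all arrays for 6 of 6 and exposed array 2 the lowest of all for 4, and naive array 2 was the highest naive array for 5. Exposed array 3 was also above the mean for 23 of the 26 immediate early genes. Exposed array 1, the highest for most immediate early genes, was above the mean for 2 of the 6 heat shock genes.

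**Figure D3:**
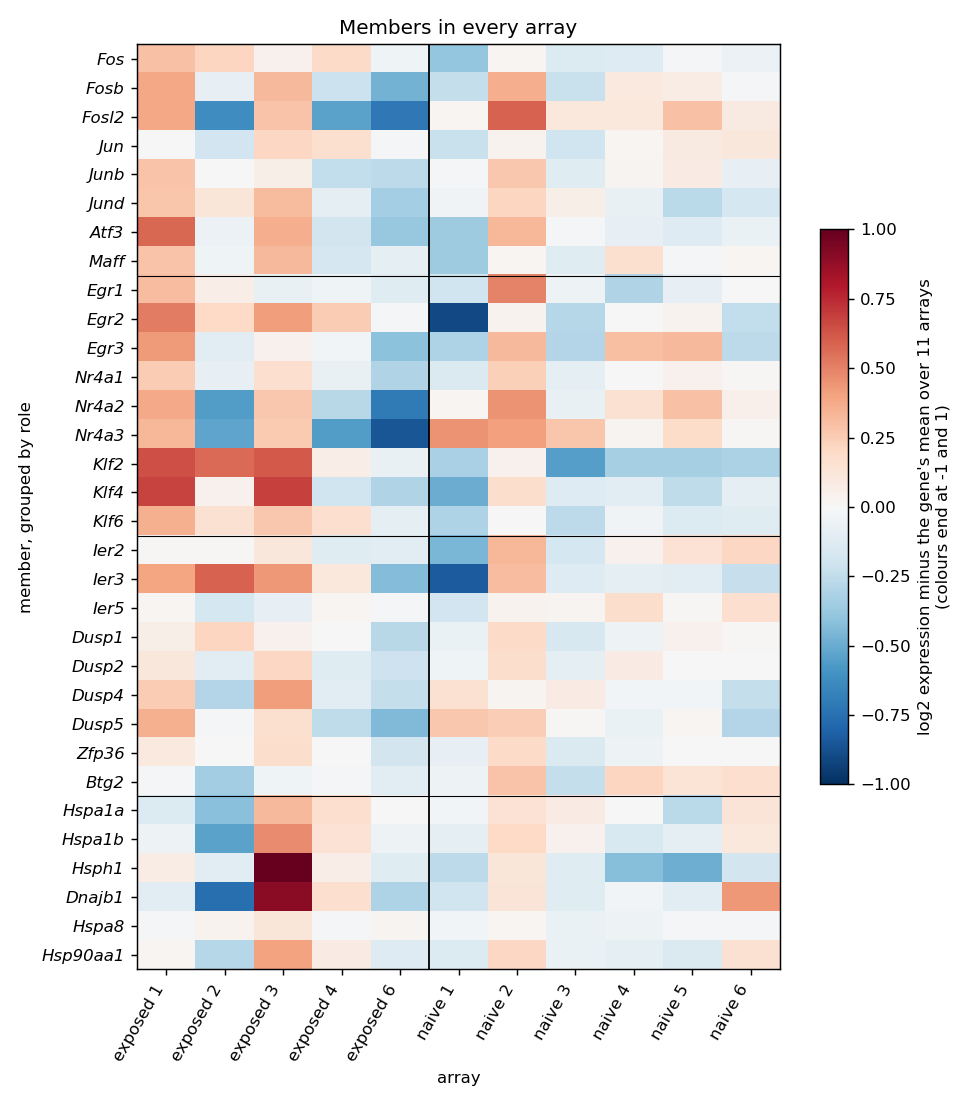
Log2 expression of each gene minus its own mean over the 11 arrays, exposed arrays left of naive ones, genes grouped by role; red is above and blue below the mean, and colours end at -1 and 1. Exposed array 6 is below the mean for all 26 immediate early genes and naive array 2 above it for all 26, and exposed array 3 is above it for all 6 heat shock genes.

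The arrays were also divided by title number into 2 sets, 1 to 3 and 4 to 6. No label makes this division, which was taken from earlier results of these data, where the sets stood apart in both groups. Each set holds both groups, 3 exposed and 3 naive arrays in the first and 2 exposed and 3 naive in the second. Within arrays 1 to 3 the difference was positive for 20 of the 26 immediate early genes, with a median of 0.12, against 53.8% of all genes. Within arrays 4 to 6 it was positive for 5 of the 26, with a median of -0.16, against 51.4% of all genes. Over 3 ways of scaling the arrays these counts were 18 to 21 and 5 to 6. The second count rested in part on exposed array 6, and was 10 of 26 without it. That count sets exposed array 4 alone against the 3 naive arrays. Leaving out other arrays gave 17 to 24 within arrays 1 to 3 and 4 to 6 genes within arrays 4 to 6. The lowest of these, 4, came without exposed array 4, where exposed array 6 was the only exposed array left.

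The genes with the widest gap between the sets included Klf4, at 0.62 within arrays 1 to 3 and -0.10 within arrays 4 to 6, Ier3, at 0.69 and -0.02, and Fosb, at 0.24 and -0.39. Klf2 was positive in both sets, at 0.89 and 0.32, as were Klf6, at 0.45 and 0.13, Egr2, at 0.76 and 0.19, and Fos, at 0.35 and 0.14. Nr4a3 was negative in both, at -0.35 and -0.78, as were Fosl2, at -0.22 and -0.79, and Nr4a2, at -0.10 and -0.66. The gap was negative, with a lower difference within arrays 4 to 6, for 29 of the 32 genes, against 52.8% of all genes. In limma's interaction test of group by number set 0 of 32 passed, as for all genes (the smallest adjusted p was 0.992). Fosb, Junb, Maff, Klf2, Klf4 and Klf6, 6 of 32, had an unadjusted p under 0.05, against 4.25% of all genes. A gap between the sets was therefore not shown for any single gene, and an opposite shift was seen in counts and medians alone. Many of these genes were high or low on the same arrays, so the genes counted are not independent observations. As the division came from earlier results of these same arrays, the counts are not independent support for it.

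**Figure D4:**
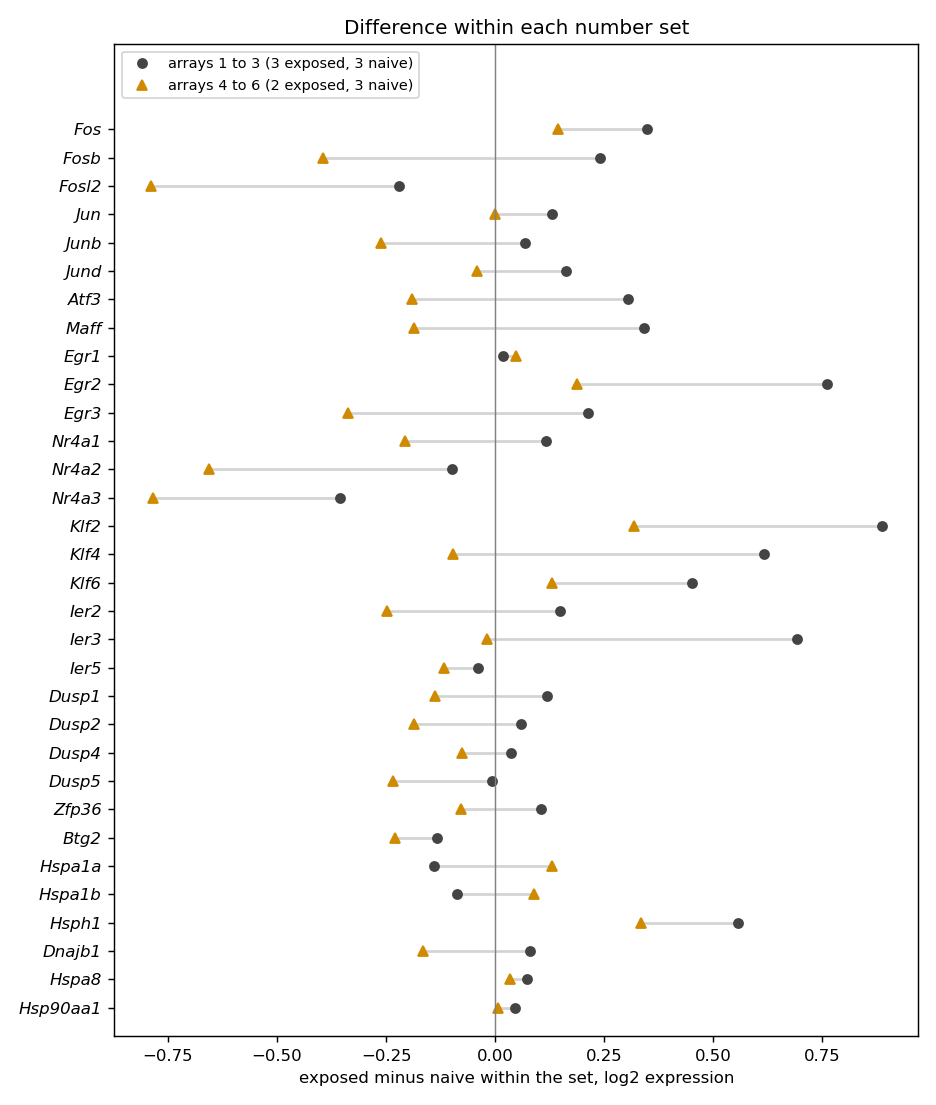
Difference in log2 expression (exposed minus naive) within arrays 1 to 3 (circles, 3 exposed and 3 naive) and within arrays 4 to 6 (triangles, 2 exposed and 3 naive), a grey line joining both values of a gene. The triangle lies left of the circle for 29 of 32 genes; Egr1, Hspa1a and Hspa1b are the exceptions.

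When limma held the number set as a block, 1 of the 32 genes was higher, Klf2 (0.63, adjusted p = 0.0122), and 0 were lower. Over all genes 1.65% were higher and 1.14% were lower in that fit. Klf6 came closest of the rest, at 0.31 with an adjusted p of 0.0621. The division into number sets was taken from earlier results of these same arrays. Smaller p-values with this block, here and for the genes named below, are therefore not independent support.

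Genes around these were looked at through 3 further lists. Of 55 measured other immediate early genes of 56 listed, 0 passed in either direction, 30 were positive (54.5%, against 53.5% of all genes), and the median difference was 0.02, against 0.01 for all genes. At an unadjusted p under 0.05, 10 were higher and 5 lower, or 27.3%, against 12.2% of all genes. The smallest p belonged to Cd69, an early activation antigen, at 9.03 ± 0.36 on exposed and 8.33 ± 0.28 on naive arrays (0.70, SE 0.16, limma adjusted p = 0.0505), and to Cited2, a CBP- and p300-binding regulator, at 10.85 ± 0.25 and 10.38 ± 0.18 (0.48, SE 0.11, adjusted p = 0.0535). Without exposed array 6 they passed, at 0.81 (adjusted p = 0.0180) and 0.58 (adjusted p = 0.00586). With any other single array left out neither passed. The limma adjusted p was then 0.0687 to 0.115 for Cd69 and 0.0611 to 0.155 for Cited2. When the number set was a block, 3 of this list were higher and 1 lower, Cd69 and Cited2 among the higher. Cd69 and Cited2 also passed with robust fitting (limma adjusted p = 0.0449 and 0.0480) and with dim genes removed (0.0321 and 0.0335). Cited2 passed with array weights (0.0341) and with the replicate number as a block (0.0331), and Cd69 did not. Neither passed without trend, under 3 scalings, with the title number as a block or in either number set alone.

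Of 45 measured other heat shock and chaperone genes of 51 listed, 0 passed in either direction. Their differences were positive for 33 of 45 (73.3%, against 53.5% of all genes), with a median of 0.08, against 0.01 for all genes. At an unadjusted p under 0.05, 10 were higher and 0 lower, or 22.2%, against 12.2% of all genes. The mean level of the list was 8.71 to 8.92 on exposed and 8.66 to 8.72 on naive arrays, and exposed array 3 was again the highest. The smallest p belonged to Hsf2, a relative of HSF1, at 7.38 ± 0.09 on exposed and 7.10 ± 0.13 on naive arrays (0.29, SE 0.07, adjusted p = 0.0703), and to Ahsa1, an activator of the Hsp90 ATPase, at 9.12 ± 0.15 and 8.88 ± 0.10 (0.24, SE 0.07, adjusted p = 0.145). When the number set was a block, 1 gene of this list was higher, Hsf2 (0.30, adjusted p = 0.0224), and 0 were lower. Hsf2 also passed with the title number as a block (adjusted p = 0.0339) and with dim genes removed (adjusted p = 0.0453). All 5 exposed arrays of Ahsa1 lay above all naive arrays, but barely, with 8.985 at the lowest exposed and 8.982 at the highest naive array. Of all genes, 2.29% had all exposed arrays above or all below the naive arrays.

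Of 23 measured upstream kinases and factors of 29 listed, 0 were higher and 1 was lower, Map2k6, which encodes MKK6, a kinase that activates p38. It stood at 8.54, 8.49, 8.48, 9.13 and 8.79 on exposed arrays 1, 2, 3, 4 and 6, against 9.03, 9.24 and 9.37 at the lowest, median and highest of the naive arrays. Exposed array 4 lay inside the naive range and the other 4 exposed arrays below it. Map2k6 was 1.45-fold lower (-0.53, SE 0.11, limma adjusted p = 0.0338) and the call was lost without exposed array 1, 2 or 3 (0.0672, 0.106 and 0.0881) and without naive array 2, 3, 4, 5 or 6 (0.0758, 0.0594, 0.0709, 0.0778 and 0.0832). When the number set was a block its adjusted p was 0.00581. The other 22 did not pass.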

How the data were processed

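Expression was measured on 11 arrays, 5 exposed and 6 naive. Per the submitters' processing notes, the deposited values are log2 expression made by the authors with RMA, a method of background correction, quantile normalisation and probe summary; version and genome build are not given in the sources used here. Of 41801 listed probesets, 7329 are blank and 34472 have values. The given platform annotation names 1 gene for 23521, several for 1814 and none for 9137.

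The brightest probeset over all arrays was used for each of 22180 genes, with no filter on dim genes. Differences, exposed minus naive, were tested with limma 3.58.1 in R 4.3.3 (lmFit, eBayes with trend), and Benjamini-Hochberg adjustment over all genes at 0.05. SE is limma's moderated standard error. No array or scan batch was given in the labels. Depth does not apply to arrays: their number limits the precision. In simulated data of 22180 genes, 97 of 100 genes changed by 1 and 82 of 100 changed by 0.5 were recovered, with 4 false calls. The changed genes were drawn from all genes, and the simulated noise was independent between arrays with equal SD in both groups. The immediate early and heat shock genes varied more than most genes, so recovery for them was not measured.

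The members, the lists of related genes and of cell type markers, and the tests were chosen with earlier results of these data known. Array values were given for members that passed, or had an unadjusted p under 0.05; array values of Klf4, Nr4a2, Ier3 and the heat shock genes were added after their values were seen. From each related list, the genes that passed were named, or else the 2 with the smallest p. Bag3 was added after its values were seen. Alternatives were limma without trend, robust fitting, array weights, 3 scalings, a filter on dim genes, other choices of probeset, blocks by number and number set, each number set alone and each array left out in turn.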

Additional observations from a re-analysis of the deposited data

Results flagged for a closer look

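In 64 groups of values, the 32 genes in exposed and in naive arrays, 3 held a sample set apart from the others of its group by the gap test for extreme values at the 95% level; chance gives about 1 in 20. Hsph1 on exposed array 3 was 10.89, above the next exposed array by 1.37, which was 0.873 of the whole range of the group. Egr2 on naive array 1 was 8.30, below the next naive array by 0.61, or 0.655 of the range. Btg2 on exposed array 2 was 11.38, below the next exposed array by 0.24, or 0.729 of the range.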

How the results depend on the processing

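The count of members higher in exposed cells, 1, was 2 with dim genes removed (Klf6 joined Klf2, 0.31, adjusted p = 0.0472). It was 0 with the replicate block and stayed 1 with the title number as a block. It was 0 in arrays 1 to 3 alone and in arrays 4 to 6 alone, and 0 to 2 with single arrays left out. The count of members lower was 0 under every alternative, and no member passed the interaction test without trend or with any array left out. The 316 genes changed became 182 with the replicate block, 617 under a number set block, 11 in arrays 1 to 3 alone and 5 in arrays 4 to 6 alone. With single arrays left out there were 104 (without exposed array 2) to 395; there were 165, 177, 170, 155 and 155 without naive array 1, 2, 3, 5 or 6, and 205 without exposed array 3. Klf2 kept its sign in all alternatives. It gave 0.66 with the replicate block (limma adjusted p = 0.0549) and 0.66 with the title number as a block (adjusted p = 0.0424). It gave 0.89 in arrays 1 to 3 (adjusted p = 0.0702) and 0.32 in arrays 4 to 6 (adjusted p = 0.229). After group means were removed, arrays sharing a number correlated at 0.0880 to 0.231. Arrays with unlike numbers were not set beside them, so these values cannot decide whether the numbers pair the samples. The main fit had no block because the labels do not say what the numbers share and conflict for 1 array. Signs turned for 21 of 32 members in at least 1 alternative, the largest main difference among them being 0.40, and 11 never turned. In arrays 1 to 3 alone the difference turned to 0.24 for Fosb, 0.0677 for Junb, 0.212 for Egr3, 0.149 for Ier2, 0.0596 for Dusp2, 0.116 for Nr4a1 and 0.0795 for Dnajb1. In arrays 4 to 6 alone it turned to -0.000818 for Jun, -0.0428 for Jund, -0.02 for Ier3, -0.191 for Atf3, -0.139 for Dusp1, -0.0765 for Dusp4, -0.0781 for Zfp36, -0.0977 for Klf4, -0.185 for Maff, 0.129 for Hspa1a and 0.0882 for Hspa1b. With the replicate block it turned to 0.00484 for Ier2, -0.0368 for Dusp4, 0.00205 for Hspa1a, 0.0128 for Hspa1b and 0.0488 for Dnajb1, and by title number to 0.0326 for Egr3. Dusp4 gave -0.00583 with array weights, -0.00751 with median centring, -0.0075 with quantile normalisation, -0.0283 at a common 75th percentile and -0.0138 under a number set block. Dusp1 gave -0.00315 with median centring and -0.024 at a common 75th percentile, Zfp36 -0.00841 with quantile normalisation and -0.00556 at that percentile, and Hsp90aa1 -0.00499 there. Array weights turned Hspa1a to 0.0109 and Hspa1b to 0.0168. With single arrays left out the range crossed 0 for Fosb (-0.121 to 0.0925), Egr1 (-0.0195 to 0.154), Egr3 (-0.141 to 0.069), Ier2 (-0.128 to 0.0301), Atf3 (-0.0135 to 0.225), Dusp1 (-0.038 to 0.0854), Dusp2 (-0.0987 to 0.00598), Dusp4 (-0.0929 to 0.0849), Dusp5 (-0.168 to 0.0306), Nr4a1 (-0.0797 to 0.0594), Zfp36 (-0.00798 to 0.0837), Hspa1a (-0.106 to 0.0797), Hspa1b (-0.128 to 0.124), Dnajb1 (-0.265 to 0.149) and Hsp90aa1 (-0.0629 to 0.109). The cause was not tested for any of these.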
